A study of Mus musculus with 8 samples.

Results

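Rnase1, Oat and Clca4 are 3 of the 13420 genes in a read count table from sorted mouse intestinal organoid cells. They were chosen by symbol because their reads were lower in wild-type (WT) cells that had shared organoids with cancer cells than in WT cells cultured alone. Their levels in these WT groups are therefore given as a description without a test, and so are the levels of cancer against WT cells, because that comparison uses the same pure WT libraries. The mixed and pure cancer libraries played no part in the choice, and the members were tested there.

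Rnase1 encodes the secreted pancreatic-type ribonuclease, which cleaves RNA outside the cell and belongs to the same family as the angiogenins. Oat encodes ornithine aminotransferase, a mitochondrial enzyme that interconverts ornithine and glutamate semialdehyde and so connects the urea cycle and polyamine precursors with glutamate and proline. The small intestine is one of the tissues in which this enzyme serves the synthesis of citrulline and arginine from glutamate or proline. Clca4 belongs to the CLCA family of secreted or membrane-attached proteins, which modulate calcium-activated chloride conductance, and a relative of it is a known product of goblet cells.

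WT organoids came from mouse small intestine, carried the mTmG transgene on a C57BL/6 background and were marked by membrane-bound tdTomato. Cancer organoids carried Villin-CreERT2 with Apc fl/fl and Tr53 fl/R172H among their alleles (Tr53 as the labels spell the p53 gene) on a C57BL/6 (F6) background and were marked by Dendra2. Villin-driven Cre acts in the intestinal epithelium, so the alleles were recombined in epithelial cells. Clumps of cells were combined at 2 parts WT to 1 part cancer, and 3 days later live WT and cancer cells were sorted by their colour from mixed and from pure cultures and sequenced in bulk with CEL-Seq, a method that reads the 3′ ends of transcripts. Pure WT (libraries A01 and A05), mixed WT (A02 and A06), pure cancer (A03 and A07) and mixed cancer (A04 and A08) had 2 libraries each, named by the well in their labels. All groups grew in the same medium with EGF, Noggin and R-spondin1. The labels do not say whether the 2 libraries of a group came from separate cultures, so p-values measure the spread between these libraries, which may be technical. In bulk RNA, fewer cells of a type and less RNA per cell cannot be told apart.

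Depth ranged from 73109 reads on genes in A02 to 4733121 in A04, 64.7 times as many, and the libraries of each group differed by more than counting noise (chi-square per degree of freedom 8.46 to 10.0). Levels are given as CPM, which are reads scaled to a common library size with TMM factors, with exact 95% Poisson intervals. The floor is the CPM that 3 reads make, about the upper limit that a count of 0 allows, and it was 38.4 in A02, 15.3 in A03, 15.1 in A08, 8.68 in A07, 6.59 in A06 and 0.565 in A04. Intervals and floors cover counting error only, since reads include amplification copies. All 15 epithelial markers had reads over the 8 libraries together and 11 to 15 of them in any 1 library, and Apc had 0 to 22 and Trp53 1 to 576 reads per library, which do not check the genotype because 3′ reads need not cover a deleted exon. Because 3′ counts are not scaled by transcript length, levels are compared between libraries and not between genes.

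In GRCm38, Rnase1 lies on chromosome 14 from 51144998 to 51146785 on the minus strand with 2 exons, and Oat on chromosome 7 from 132557478 to 132576398 on the minus strand with 10 exons in its longest transcript. None of the windows of 50 bases in the last 500 bases of either transcript occurred in another gene. Clca4 is less certain, because the symbol is an older name of 2 RefSeq genes, Clca3b (chromosome 3, 144822623 to 144849357, minus strand) and Clca4a (chromosome 3, 144952480 to 144975045, minus strand). For Clca4a, 28.2% of the 3′ windows also occurred in the pseudogene Clca4c-ps. The table does not list Clca6, another older name of Clca4a, and which of the 2 genes the Clca4 row counts was not resolved. The row is called Clca4 here, as in the table.

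The promoters of Rnase1 and Oat, from RefSeq on GRCm38.p6, are shown because both genes had their highest level in pure WT cells, and they run from 250 bases before to 50 bases after the transcript start, with capitals marking the motif matches. The Rnase1 promoter is chr14:51146718-51147017 on the minus strand, and the Oat promoter is chr7:132576349-132576648 on the minus strand. No promoter is shown for Clca4.
Rnase1: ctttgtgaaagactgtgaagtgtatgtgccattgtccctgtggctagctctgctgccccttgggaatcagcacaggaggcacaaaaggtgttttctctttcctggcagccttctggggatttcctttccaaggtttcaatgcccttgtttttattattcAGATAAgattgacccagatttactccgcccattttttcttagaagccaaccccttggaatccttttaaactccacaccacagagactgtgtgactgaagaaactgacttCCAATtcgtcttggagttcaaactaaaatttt
Oat: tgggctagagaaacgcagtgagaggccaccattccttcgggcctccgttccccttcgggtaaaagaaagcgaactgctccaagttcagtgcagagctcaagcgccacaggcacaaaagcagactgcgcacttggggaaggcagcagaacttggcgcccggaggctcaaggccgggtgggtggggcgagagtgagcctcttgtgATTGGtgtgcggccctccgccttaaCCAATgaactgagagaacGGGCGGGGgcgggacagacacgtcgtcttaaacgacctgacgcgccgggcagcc

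The 2 promoters differed in composition, with 43.7% G and C in Rnase1 and 61.7% in Oat against a median of 52.7% over 32851 promoters. Both strands were searched for 8 short motifs. Rnase1 held AGATAA, the core of GATA factor sites, starting 91 bases before the start, a motif that 11.2% of all promoters held. It also held CCAAT from base 19 after the start. Oat held CCAAT at 2 places, once on each strand, starting 47 and 22 bases before the start, and 37.4% of all promoters held this motif. Oat also held GGGCGGGG, a GC box bound by SP and KLF factors, across its start, as did 17.6% of promoters. CCAAT was thus the motif that both promoters shared, and it was also the most frequent of the 8 motifs. Neither promoter held the AP-1 motif TGANTCA, which 7.81% of all promoters held. The TCF/LEF motif, searched as CTTTGAT and in a second spelling with CTTTGAA, was in 8.65% of promoters and in neither of these. The CDX motif TTTATNG (10.9% of promoters) was absent from both windows too. So was the HNF4 motif CAAAGTNCA (1.41%). The TATA box, searched as TATAAA, was in 13.6% of promoters and in neither of these. These are letter matches in a short window and no evidence of binding or its absence.

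Rnase1 reads were found in pure WT cells and in no other group. The pure WT libraries held 54 reads in A01 and 259 in A05, and the mixed WT, pure cancer and mixed cancer libraries held 0 reads each. These reads correspond to 47.8 CPM (95% interval 35.9 to 62.4) in A01 and 140 CPM (124 to 158) in A05, a mean of 94.0 ± 65.4 (SD, n = 2). The pure WT libraries thus differed from each other beyond their counting error, and both lay above the floors of all 6 libraries without reads. With reads pooled over each group, Rnase1 was at least 18.7-fold higher in pure than in mixed WT cells, at least 19.0-fold higher than in pure cancer cells and at least 193-fold higher than in mixed cancer cells. The last bound rests on A04, the deepest library. Among the 5264 genes tested, 69 (1.31%) had 0 reads in both mixed WT libraries and 31 (0.589%) had 0 reads in all 4 cancer libraries. Rnase1 was the only gene (0.019%) with 0 reads in both sets. Its low reads in mixed WT cells are what it was chosen for, so nothing is read from this count.

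How firmly the zeros of Rnase1 bound its level depends on the library. At the level of A01, A02 would have held 3.73 reads and A06 21.7 reads. At the level of A05 these would have been 11.0 and 63.8 reads. The bound for single pairs of libraries therefore ran from at least 1.24-fold (A01 over A02) to at least 21.3-fold (A05 over A06), and A06 carried most of the pooled bound. Without A06 the pooled bound fell to 2.74-fold, and without A05 it was 8.49-fold. Counted as molecule barcodes, Rnase1 had 29 in A01 and 83 in A05, and the bound for mixed WT cells was 8.14-fold.

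Oat was the member with reads in every library. Pure WT cells held 666 reads in A01 and 1664 in A05, which is 589 CPM (95% interval 545 to 636) and 901 CPM (858 to 945). Mixed WT cells held 5 reads in A02 and 62 in A06, which is 64.0 CPM (20.8 to 149) and 136 CPM (104 to 175). The intervals of the mixed libraries overlapped each other and lay far below both pure WT libraries. Pure cancer cells held 28 reads in A03 and 30 in A07, or 143 and 86.8 CPM, and mixed cancer cells held 631 in A04 and 5 in A08, or 119 and 25.2 CPM. The 6 libraries other than pure WT thus ranged from 25.2 to 143 CPM, and the mixed WT libraries lay within the range of the cancer libraries.

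The order of the Oat group means was pure WT (745 ± 220 CPM, SD, n = 2), pure cancer (115 ± 39.8), mixed WT (100.1 ± 51.1) and mixed cancer (72.0 ± 66.2), and the last 3 did not differ beyond their spread. With pooled reads, pure WT exceeded mixed WT 6.23-fold (95% counting interval 4.89 to 8.07), pure cancer 7.30-fold (5.63 to 9.65) and mixed cancer 6.78-fold (6.21 to 7.41). Mixed WT over pure cancer was 1.17 (0.813 to 1.70) and mixed WT over mixed cancer 1.09 (0.833 to 1.40). In these pooled counts, counting error did not separate Oat in mixed WT cells from Oat in cancer cells. The pooled mixed cancer reads came mostly from A04 (631 of 636). Single libraries did differ beyond counting error, with A06 at 136 CPM (104 to 175) and A08 at 25.2 CPM (8.19 to 58.9). Single pairs of a pure and a mixed WT library gave ratios from 4.33 (A01 over A06) to 14.1 (A05 over A02). The difference fitted by edgeR was -2.77 on the log2 scale (SE 0.594).

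The size of the Oat difference depended on what was counted. The deposited barcode counts gave a log2 difference of -1.42 against -2.77 for reads, and Oat had 174 and 236 barcodes in A01 and A05 against 3 in A02 and 35 in A06, where the number of different barcodes sets an upper limit to such counts. Each Oat barcode was read 3.83 and 7.05 times in A01 and A05 and 1.67 and 1.77 times in A02 and A06. The estimated transcript numbers, which correct for repeated barcodes, were 291 in A01 and 651 in A05, against 3.01 in A02 and 37.6 in A06. They gave a log2 difference of -2.24.

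Clca4 was highest in pure WT cells, lower in mixed WT cells and near or below detection in cancer cells. Pure WT cells held 273 reads in A01 and 701 in A05, which is 242 CPM (95% interval 214 to 272) and 380 CPM (352 to 409). Mixed WT cells held 2 reads in A02 and 12 in A06, which is 25.6 CPM (3.10 to 92.4) and 26.4 CPM (13.6 to 46.1). In cancer cells, 4 reads were found in A04, which is 0.753 CPM (0.205 to 1.93), and 0 in A03, A07 and A08. Both mixed WT libraries lay below both pure WT libraries, and A06 lay above the floors of A07 and the value of A04.

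Pooled Clca4 reads in pure WT cells exceeded those in mixed WT cells 12.5-fold (95% counting interval 7.39 to 22.9), and the fitted difference was -3.58 on the log2 scale (SE 0.681). The mixed WT level was at least 4.74-fold above pure cancer cells and 36.2-fold (11.4 to 151) above mixed cancer cells. Unlike Oat, Clca4 in mixed WT cells thus remained above the cancer level in the pooled counts, where the pure WT level was at least 59.0-fold above pure cancer and 451-fold (175 to 1657) above mixed cancer. The 4 pairs of a pure and a mixed WT library gave ratios of 9.16 to 14.8, of which those over A02 rest on its 2 reads, a level below the floor of that library.

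**Figure D1:**
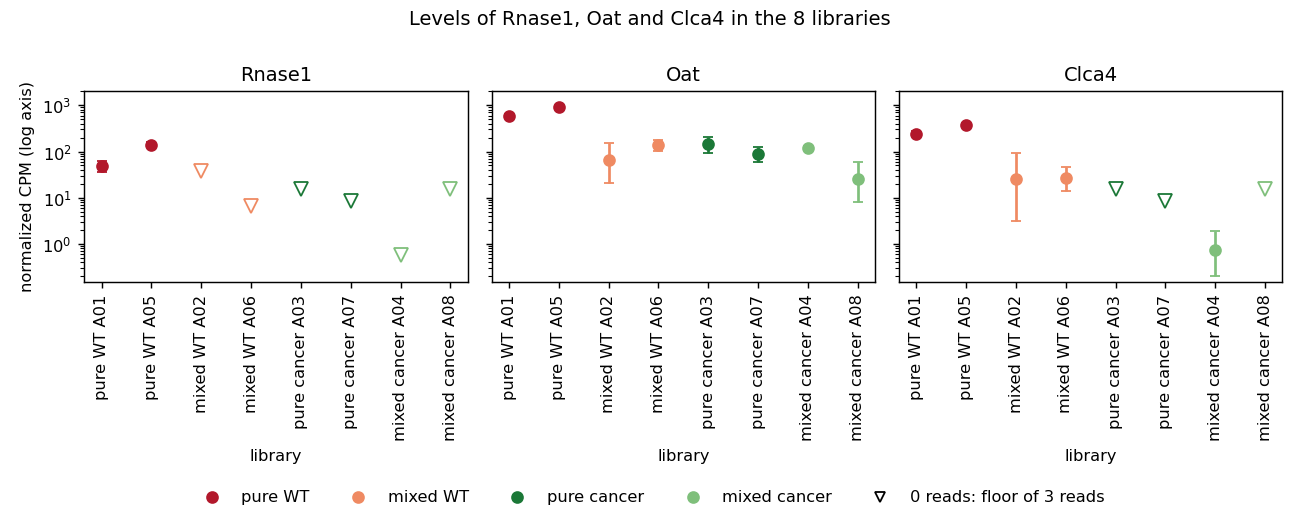
Normalized CPM (log axis) of Rnase1, Oat and Clca4 in each of the 8 libraries, coloured by group. Filled points carry exact 95% Poisson intervals, some narrower than the point, and open triangles mark libraries with 0 reads at their floor of 3 reads. Pure WT libraries are the highest for all 3 genes, Oat lies between 25.2 and 143 CPM in the other 6, and Rnase1 has no reads outside pure WT.

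Across all tested genes, a lower level in both mixed than in both pure WT libraries was common. It was found for 1500 of 5264 genes (28.5%), and for 1084 genes (20.6%) all 4 cancer libraries lay below both pure WT libraries. All 3 members showed both patterns, and the first is what they were chosen for. The edgeR test called 39 genes (0.741%) between mixed and pure WT cells after Benjamini-Hochberg adjustment at 0.05, 34 (0.646%) higher and 5 (0.095%) lower, and 509 (9.67%) had an unadjusted p under 0.05. The members are 3 of these 5 by their choice, and nothing is read from it. The other 2 were Mt2, a metallothionein (1407 reads in pure and 34 in mixed WT cells, log2 difference -2.79), and Pla2g2a, a secreted phospholipase of Paneth cells (1889 and 60 reads, -2.55). Just outside the threshold lay Mt1 (3488 and 129 reads, -2.26) and Adh1, an alcohol dehydrogenase (5609 and 273 reads, -1.91). The number of genes called lower was 0 without A06 and 1 without A05, and 26 without A03 or without A07.

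**Figure D2:**
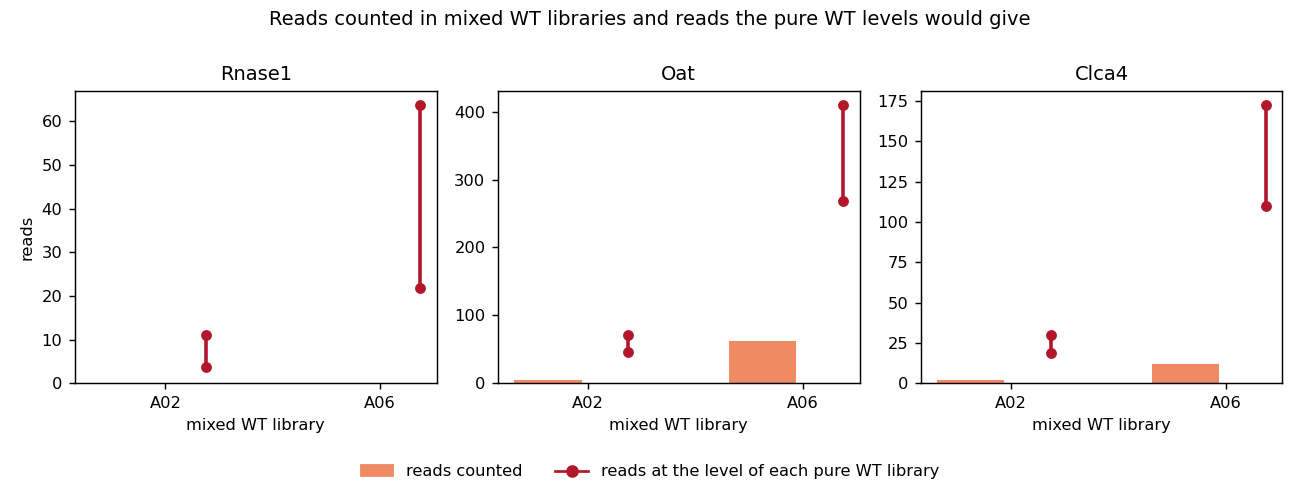
Reads counted in the mixed WT libraries A02 and A06 (bars) and the reads that the CPM of each pure WT library would give at their depth (2 joined points, A01 and A05). For Rnase1 the bars are at 0 against 3.73 to 11.0 reads in A02 and 21.7 to 63.8 in A06, and for Oat and Clca4 the bars lie below both points in each library.

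In cancer cells, Oat was the member with enough reads to compare mixed with pure cultures, and no difference was detectable. Oat averaged 115 CPM in pure and 72.0 CPM in mixed cancer cells, a log2 difference of -0.46 (SE 0.575, 95% interval -1.65 to 0.73, edgeR adjusted p = 1, unadjusted p = 0.432 with n = 2 per group in a model across all genes). The mixed cancer libraries, at 119 CPM in A04 and 25.2 CPM in A08, differed more from each other than the group means did. Without A04 the log2 difference was -2.13 and without A08 it was 0.16, each with 1 mixed cancer library left, so its sign rests on single libraries. Clca4 had 0 reads in pure and 4 in mixed cancer cells, all in A04, and Rnase1 had none in either, so these genes passed the filter on low counts through pure WT cells and could not show a difference between cancer groups. No gene of the 5264 was called in this comparison (0%) by edgeR or by DESeq2, with 69 genes (1.31%) at an unadjusted p under 0.05 by edgeR and 54 by DESeq2.

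The family relatives of Clca4 were scarce. Of 12 other CLCA symbols sought, 3 had reads and none passed the filter on low counts. Clca3, an older name of the goblet cell gene Clca1, had 9 reads in A01, 8 in A05, 3 in A02 and 12 in A06, and 1 in all cancer libraries together. Scaled to depth, this was 7.96 and 4.33 CPM in A01 and A05 and 38.4 and 26.4 CPM in A02 and A06. Unlike Clca4, Clca3 was thus higher in both mixed WT libraries, though its A02 value is the floor of 3 reads. AI747448, an older name of Clca4b, had 5 and 11 reads in A01 and A05 and 0 elsewhere, but the pooled pure WT level did not exceed the floor of mixed WT cells. Clca2 had 2 and 1 reads in A01 and A05 and 3 in A04. The counts of AI747448 and Clca2 are too low to place them beside the pattern of Clca4, and the Clca3 difference was not tested.

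Among 25 other symbols of the ribonuclease family and its inhibitor, 5 had reads and 4 were tested. None was called between mixed and pure WT cells, where 0.741% of all tested genes were called, so nothing is read from this. By fitted level 1 was higher and 3 were lower, with a median log2 difference of -0.72. Over all tested genes, 2904 of 5264 were lower, with a median of -0.10. Ang4, an angiogenin that Paneth cells secrete, was at 297 and 621 CPM in A01 and A05 and at 154 and 380 CPM in A02 and A06, so the groups overlapped (log2 difference -0.72, SE 0.530, edgeR adjusted p = 0.739). Rnase4 had a log2 difference of -1.75 (edgeR adjusted p = 0.391), and Rnh1, the intracellular ribonuclease inhibitor, of 0.36 (adjusted p = 0.901). In pure cancer against pure WT cells, Ang4 was the 1 gene of this list called, with 1483 reads in pure WT and 1 in pure cancer cells (ratio 270, 95% counting interval 48.3 to 10655, edgeR adjusted p = 3.81e-06). Over all genes, 9.95% were called in that comparison, 5.11% higher and 4.84% lower. Ang4 thus shared with Rnase1 the near absence from cancer cells but had 185 reads in mixed WT cells, where Rnase1 had 0.

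None of the tested enzymes around ornithine, which make or use the substrates of Oat, was called in WT cells. Over all tested genes 0.741% were called, so nothing is read from the absence of calls among so few. Of 30 other genes for ornithine, proline, citrulline, arginine and glutamate enzymes and carriers, 28 had reads and 14 were tested. Between mixed and pure WT cells, 11 of 14 had a lower fitted level (median log2 difference -0.47). Over all tested genes, 2904 of 5264 did (median -0.10). Those with the highest mean levels were Glud1, glutamate dehydrogenase (-0.16, edgeR adjusted p = 0.962), Pycrl, a pyrroline-5-carboxylate reductase that makes proline (-1.17, adjusted p = 0.457), and Got2, the mitochondrial aspartate aminotransferase (-0.70, adjusted p = 0.765). The mitochondrial ornithine carrier Slc25a15 had a difference of -1.57 with an SE of 0.925 (edgeR adjusted p = 0.643).

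In pure cancer against pure WT cells, 3 genes of this list were called lower and none higher, against 4.84% and 5.11% of all tested genes. By fitted level 9 were lower and 5 higher, with a list median of -0.40 against -0.05 over all tested genes. Agmat, agmatinase, had 178 and 308 reads in A01 and A05, 4 and 43 in A02 and A06 and 0 in both pure cancer libraries, so it was at least 29.4-fold higher in pure WT cells (edgeR adjusted p = 0.000165). Otc, ornithine transcarbamylase, which uses ornithine to make citrulline, had 21 and 164 reads in A01 and A05, 5 and 32 in A02 and A06 and 0 in pure cancer cells. It was at least 11.2-fold higher in pure WT than in pure cancer cells (edgeR adjusted p = 0.00683, and 0.237 without A05). Pycrl fell by 1.90 on the log2 scale (SE 0.532, edgeR adjusted p = 0.0216), and its call was lost without any 1 of A01, A03, A05 or A07 (adjusted p 0.0719 to 0.227). Agmat and Otc were thus at 0 reads in pure cancer cells as Rnase1 and Clca4 were, while their pure over mixed WT ratios were 1.85 (95% counting interval 1.37 to 2.56) and 0.896 (0.627 to 1.31).

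Polyamine enzymes, which draw on ornithine through ornithine decarboxylase, gave the only call of these lists in WT cells. Of 14 genes, 12 had reads and 11 were tested, of which 1 was called, against 0.741% of all tested genes. Sat1, the acetyltransferase that starts polyamine breakdown, was at 408 CPM in A01 and 370 CPM in A05 (pure WT), and at 1382 CPM in A02 and 1479 CPM in A06 (mixed WT). The WT groups did not overlap, and Sat1 rose by a log2 difference of 1.87 (SE 0.406, edgeR adjusted p = 0.0290). The call was lost without A01 (adjusted p = 0.138), A05 (0.318) or A06 (0.130), with barcode counts (0.293) and without the filter on low counts (0.0517), while the log2 difference stayed between 1.72 and 1.95 when any 1 library was left out. Paox, a polyamine oxidase of the same route, had a difference of 2.08 (edgeR adjusted p = 0.123), Srm, spermidine synthase, of -1.99 (adjusted p = 0.129), and Odc1, ornithine decarboxylase, of -0.79 (adjusted p = 0.746). Over the list, 7 of 11 had a higher fitted level in mixed WT cells, with a median of 0.53. Over all tested genes, 2360 of 5264 did, with a median of -0.10.

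Sat1 in the cancer libraries was at 1155 and 1013 CPM in the pure libraries A03 and A07 and at 670 and 762 CPM in the mixed libraries A04 and A08. Pure cancer cells exceeded pure WT cells by a log2 difference of 1.47 (SE 0.401, edgeR adjusted p = 0.0184), a call lost without A01, A03, A05 or A07 (adjusted p 0.0576 to 0.159), with barcode counts (0.182) and without the filter on low counts (0.0714). Smox, spermine oxidase, rose by 2.54 in the same comparison (SE 0.594, edgeR adjusted p = 0.00578, and 0.125 without A01). Over all tested genes 5.11% were called higher in that comparison. The list median was 0.45, against -0.05 over all tested genes. None of the tested genes of these lists was called between mixed and pure cancer cells, where no gene at all was called.

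**Figure D3:**
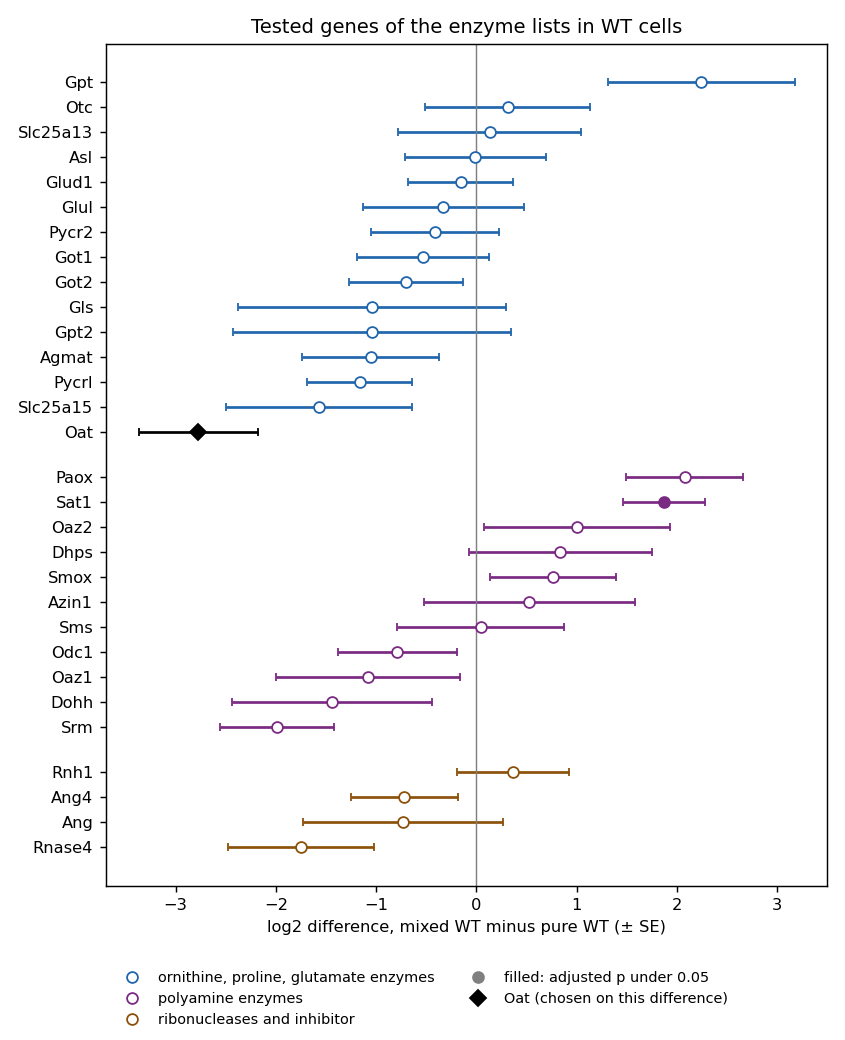
Log2 difference of mixed minus pure WT cells (± SE) for the tested genes of the ornithine, polyamine and ribonuclease lists, with Oat as a black diamond for comparison. Sat1 is the only filled point, called at an edgeR adjusted p of 0.0290. Oat at -2.77 lies below every listed gene, but it was chosen on this difference, so nothing is read from its place.

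The genes most like each member were sought among the 2745 genes averaging 50 or more reads a library, by the root mean square difference of log2 CPM centred on each gene's own mean over the 8 libraries. All distances are descriptions, and they share the depths of these libraries. Clca4 was nearest to Clps, pancreatic colipase (0.615), Smoc2, a stem cell marker (0.728), AY761184 (0.811), Cdx1, an intestinal homeobox factor (0.845), and Itln1, intelectin (0.924). The first 4 of these had 0 reads in both pure cancer libraries and in A08, as Clca4 did. Their pure over mixed WT ratios, where computed, were 3.21 (95% counting interval 2.24 to 4.77) for Clps, 2.51 (1.82 to 3.55) for Smoc2 and 2.45 (1.87 to 3.26) for Cdx1. That of Clca4 was 12.5, but Clca4 was chosen for this difference, so nothing is read from its larger ratio.

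Oat was nearest to Dhrs4, a short-chain dehydrogenase (0.664), Cdca7, a cell cycle gene also used as a stem cell marker (0.720), 1110001J03Rik (0.749), Wdr55 (0.751) and Pex16, a peroxisome assembly factor (0.784). These genes had reads in all 8 libraries, as Oat did, and lower mean levels in the other 3 groups than in pure WT cells. Rnase1 was nearest to Oat itself (1.34), then Cdca7 (1.51), Reg1 (1.59), Pla2g2a (1.62) and Clca4 (1.63). Rnase1 had 0 reads outside pure WT, where its log2 CPM was set by the prior count. Its distance to Oat was 0.710 with a prior count of 10. The members were also chosen on the same WT difference, so nothing is read from their nearness to each other. Reg1, a secreted lectin, had 186 and 527 reads in A01 and A05, 4 and 1 in A02 and A06 and, like Rnase1, 0 in all cancer libraries. The distance between Oat and Clca4 was 2.08, larger than that of Rnase1 to either.

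Marker lists of intestinal cell types moved with the members to differing degrees. The summed level of the stem list was 698 and 1045 CPM in pure WT and 448 and 521 CPM in mixed WT cells. Of its 10 tested genes, 0 were called, against 0.741% of all tested genes. Of the 10, 7 had a lower fitted level, as did 2904 of all 5264 tested genes. The Paneth list summed to 2561 and 4800 CPM in pure WT and 972 and 1580 CPM in mixed WT cells. Among its 5 tested genes Pla2g2a was called lower, against 0.095% of all tested genes. In the same libraries the members' levels were lower in both mixed WT libraries, a pattern that 28.5% of all tested genes showed. The part of these cell types in that was not tested. The enterocyte list overlapped between pure (1917 to 2245 CPM) and mixed WT cells (1749 to 2022 CPM) with 0 of 10 called, and the enteroendocrine (428 to 989 and 606 to 755 CPM) and goblet lists (2929 to 2980 and 2892 to 3874 CPM) overlapped too.

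Cancer cells held 25.2 to 45.0 CPM of enterocyte and 0 to 3.01 CPM of enteroendocrine markers, and the fetal-like and repair list ran the other way, from 314 and 459 CPM in pure WT over 2431 and 5102 CPM in mixed WT to 6060 to 11548 CPM in cancer cells. In WT cells 6 of 13 tested genes of that list were called higher, against 0.646% of all tested genes. This list was drawn up with results on these libraries known and is not independent evidence of its direction. Of pancreatic acinar markers, 6 of 20 had reads, mostly Clps, and they summed to 169 and 235 CPM in pure and 38.4 and 76.9 CPM in mixed WT cells. Leukocyte markers had reads for 3 of 12 genes and summed to at most 4.39 CPM in WT libraries, to 0 and 69.4 CPM in pure cancer and to 10.9 and 25.2 CPM in mixed cancer libraries. Most of this was Cd68, a macrophage marker, with 0 reads in A03 and 23 in A07, which was called higher in pure cancer than in pure WT cells (edgeR adjusted p = 0.0154). Mesenchyme and endothelium markers had reads for 3 of 12 genes and stayed at or under 7.04 CPM in all 8 libraries.

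**Figure D4:**
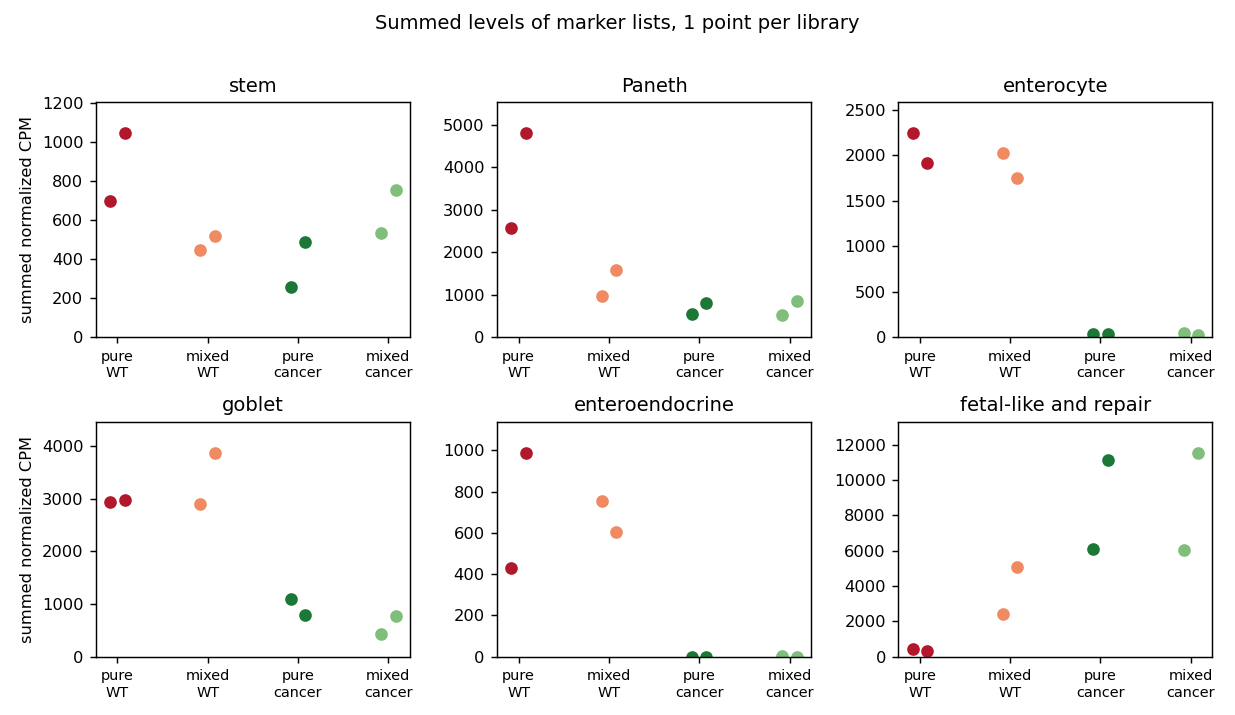
Summed normalized CPM of 6 marker lists, 1 point per library and linear axes from 0, by group. Stem and Paneth sums are lower in both mixed than in both pure WT libraries, enterocyte and enteroendocrine sums overlap between them, and the fetal-like and repair sum is higher in mixed than in pure WT and highest in cancer libraries.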

How the data were processed

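Per the study's methods, read 2 was aligned by the authors to the mm10 RefSeq transcriptome with BWA, multi-mapping reads were removed, and gene counts were made with featureCounts. The authors deposited read counts, barcode counts (different molecule barcodes) and expected counts of transcripts estimated from the barcodes, which were rounded here. A deposited DESeq2 1.22.2 table of the authors' mean, fold change and p-value columns was not used. A further allele of the cancer organoids is not reported here. The entries that are not mouse genes (2, with 1 read) were left out. Read counts were fitted with edgeR 4.0.16 in R 4.3.3 over all 8 libraries (filterByExpr with a minimum count of 10, TMM, quasi-likelihood test, Benjamini-Hochberg over 5264 genes, called at 0.05). Log2 CPM used a prior count of 2.

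The members, gene lists and tests were chosen with earlier results of these data known. Named genes were the members, called list genes and the 3 most abundant tested genes of a list, CLCA relatives with reads, and the 5 nearest genes, and other genes were named after their values were seen. Symbols were matched to RefSeq and to GENCODE vM21 on GRCm38. Alternatives were the other count tables, other scaling (upper-quartile or median-of-ratios), another minimum count (50) or none, DESeq2 1.42.0, only the 4 libraries compared, a prior count of 10, and each library left out.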

Additional observations from a re-analysis of the deposited data

How the results depend on the processing

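With 2 libraries per group and a depth of 73109 reads in A02, levels under 38.4 CPM could not be resolved there, and 0 reads bound Rnase1 no further than its floors. No paired analysis was run, because the labels give wells and no replicate number shared between groups. A block by the order of the wells was not fitted. The members' levels in mixed WT cells were below those in pure WT cells under every alternative that gave a value. The log2 difference of Oat was -1.42 with barcode counts and -2.24 with transcript counts, and it ran from -3.65 (without A06) to -2.43 with 1 library left out. That of Clca4 was -2.71 with barcode counts, -3.06 with transcript counts and -3.87 to -3.19 with 1 library left out. The least fold of Rnase1 was 8.14 with barcode and 8.38 with transcript counts, 2.74 (without A06) to 24.9 with 1 library left out, and 8.49 without A05, and filters and DESeq2 do not bear on this bound. In cancer cells the Oat difference reversed with transcript counts (0.0060) and without A08 (0.16), with a range of -2.13 to 0.16 over libraries left out and an adjusted p of 0.886 to 1 under the alternatives.

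The number of list genes called in WT cells was 1, 0 with no filter, 2 (Paox and Sat1) with DESeq2 and with only the 4 libraries compared, and 0 to 3 with 1 library left out. For pure cancer against pure WT cells it was 6, and 3 to 8 with 1 library left out (3 without A01 and 3 without A05). It was 0 under all 16 alternatives for mixed against pure cancer cells. Among all genes, 39 were called in WT cells with the settings used, 93 with barcode counts, 82 with transcript counts, 70 with DESeq2, 68 with no filter, 108 with only the 4 libraries compared and 2 (without A06) to 118 (without A07) with 1 library left out. In pure cancer against pure WT cells 524 genes were called, 232 with a minimum count of 50, and 261 (without A05) to 745 (without A02) with 1 library left out. With a prior count of 10, 2 of the nearest 5 genes of Rnase1, 3 of those of Oat and 3 of those of Clca4 were shared with a prior count of 2. Except where a value computed above shows it, the cause was not tested.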
